A study of Zea mays with 6 samples.

Results

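Hb2 (GRMZM2G168898) and GLB1 (GRMZM2G067402, also named Hb) are the haemoglobin genes of maize that could be identified on the array, and they are described here on every probe and every array. They are 2 of the 39219 genes on the array, with 3 of its 59756 transcripts and 7 of its 139000 transcript probes. Hb2 is represented by 1 transcript with 2 probes, and GLB1 by transcript T01 with 2 probes and transcript T02 with 3 probes. The 2 genes were singled out because both had stood among the largest transcript differences between the groups in an earlier look at the same arrays. Their difference between groups is therefore a description and carries no test.

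Plant haemoglobins are haem proteins that include the leghaemoglobins, which carry oxygen in legume nodules, and a non-symbiotic type of ordinary plant cells. The non-symbiotic type binds oxygen very tightly, and its oxygenated form turns nitric oxide into nitrate, with electrons that come in the end from NADH or NADPH. In roots of several plant species transcripts of this type are known to become more abundant when oxygen is low and when nitrate is supplied. The symbol GLB1 is also in use in maize for the seed storage protein globulin-1, which is encoded by another gene (GRMZM2G067919), and HB symbols of the homeobox family have no relation to Hb2.

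Root RNA of Zea mays PR33T56, a hybrid in the labels but an inbred line in the study's methods, was labelled with Cy3 and hybridised to 6 NimbleGen arrays, in a single colour. The plants of both groups grew in the same nutrient solution, with ammonium nitrate as the nitrogen source, and both passed through 7 d without Fe. Plants of the 3 arrays labelled Fe-deficient then stayed without Fe-EDTA for another 7 d, while plants of the 3 arrays labelled Fe-sufficient received 100 µM Fe-EDTA during those 7 d, so that the controls were resupplied plants and not plants that had always had Fe. All plants were 19 d old at sampling, each array held the pooled roots of 6 plants, and the replicates came from independent cultivations. The arrays were on 1 slide, at positions 10, 11 and 12 for the Fe-deficient label and 7, 8 and 9 for the Fe-sufficient label, so slide position and group cannot be told apart.

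The deposited values are probe intensities on a linear scale, already normalised between arrays by quantiles. Each array also carries 1663 probes of random sequence, and a probe is here called above background when it was brighter than the 95th percentile of the random probes of its own array. That limit lay between 229 and 359 intensity units, and from 58.4% to 66.5% of the transcript probes of an array exceeded it. Where whole roots are measured, fewer cells that express a gene and less RNA per cell cannot be told apart. A transcript was called where the limma test gave an adjusted p no higher than 0.05 together with a change of 1.5-fold or more, and a gene is counted by its brightest transcript, which 0.079% of all genes passed. Of 30 genes for iron acquisition and iron response taken from the study's own lists, 0 were called between the labelled groups and 2 had an unadjusted limma p under 0.05, a level that 9.73% of all genes reached (median log2 difference -0.05, lowest adjusted p = 0.463). The groups are therefore named throughout by their labels.

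In these genes Fe-sufficient 1 was the lowest of its group in 21 of the 30, and Fe-sufficient 2 the highest in 19. Their median departures from the other 2 arrays of the group were -0.38 and 0.32. Fe-deficient 2 was the lowest of its group in 17, at -0.16. Over all transcripts 3529 departed by at least 1 log2 unit on Fe-sufficient 1 and 3465 on Fe-deficient 2. The phytosiderophore exporter gene TOM1, for example, had log2 values of 8.49 on Fe-sufficient 1, 13.51 on Fe-sufficient 2 and 12.52 on Fe-sufficient 3, against 12.61, 11.14 and 12.59 on Fe-deficient arrays 1, 2 and 3. Without Fe-sufficient 1 the iron list still had 0 calls in limma (lowest adjusted p = 0.142), and its median was -0.20. Without that array the log2 difference was 3.30 for Hb2 and 2.53 for GLB1, against 3.22 and 2.60 with it.

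The root genes rtcs and rth3 were above background on all 6 arrays, with mean log2 levels of 10.42 and 12.46 under the Fe-deficient label and 10.53 and 12.57 under the Fe-sufficient label. Of 6 genes of photosynthetic tissue and 8 of seed, 0 were called in limma, with 1 and 0 at an unadjusted p under 0.05, and the mean log2 level of the photosynthetic list was 9.14 to 9.54 on arrays labelled Fe-deficient and 9.03 to 9.33 on the Fe-sufficient arrays. In its brightest transcript ssu1 was above background on 1 of 3 arrays in each group, and rbcs on 0 of 3. The dimmer rbcs transcript T01 was above background on 3 of 3 arrays labelled Fe-deficient and on 0 of 3 labelled Fe-sufficient. Its groups did not overlap, but it was not called (limma adjusted p = 0.481). The other genes of that list, cab48, pep1, ppdk1 and me3, were above background on all 6 arrays, by the rule that at least 1 probe was. The transcript value of cab48 was itself low. Its mean log2 levels were 6.76 and 6.92 under the Fe-deficient and Fe-sufficient labels, below the random probe limits of 7.84 to 8.49. By brightest transcript the unadjusted limma p under 0.05, a level that 9.73% of all genes reached, belonged to ppdk1. Under the Fe-deficient and Fe-sufficient labels ppdk1 had mean log2 levels of 14.75 and 14.17, and pep1 of 11.44 and 10.78. The seed list lay at 7.00 to 7.26 and 6.85 to 7.16, respectively.

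Both haemoglobin genes had higher values on every array labelled Fe-deficient than on any array labelled Fe-sufficient. For GLB1 all 5 probes showed this, and they were above background on all 6 arrays. Hb2 lay near the random probes under the Fe-sufficient label, and its large difference was carried by 1 of its 2 probes. The median polish value of a transcript, which summarises its probes on the log2 scale, does not show this split.

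The array files give the probes of Hb2 the positions 141 and 899. A position is taken here as the start of the probe on the sequence it was designed on, which the files do not define, and the words upstream and downstream rest on that reading. The probe at position 899 had intensities of 18429, 14059 and 13505 on Fe-deficient arrays 1, 2 and 3, as labelled. On Fe-sufficient arrays 1, 2 and 3 it had 365, 234 and 249. The groups did not overlap, and the lowest Fe-deficient value was 37.0 times the highest Fe-sufficient value. Under the Fe-deficient label 0 of the random probes reached this probe. Under the Fe-sufficient label 37, 161 and 83 of the 1663 random probes were at least as bright as it, and it was above background on 2 of the 3 arrays, the exception being Fe-sufficient 2. In log2 units the probe stood 7.62 to 8.04 over the median of the random probes under the first label and 1.63 to 2.48 over it under the second.

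The mean log2 intensity of this probe was 13.89 ± 0.24 under the Fe-deficient label and 8.11 ± 0.35 under the Fe-sufficient label (SD, n = 3 in each group). The difference of 5.78 (SE 0.24) corresponds to 54.8-fold and ranked 1 among the 139000 transcript probes, ahead of a next largest rise of 5.23, or 37.5-fold. After a correction for background of the RMA type the difference was 5.98, or 63.0-fold.

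The probe at position 141 of the same transcript behaved differently. Its intensities were 352, 367 and 311 on Fe-deficient arrays 1, 2 and 3, and 206, 180 and 275 on Fe-sufficient arrays 1, 2 and 3. The groups did not overlap here either, but the lowest Fe-deficient value was only 1.13 times the highest Fe-sufficient value. The difference was 0.66 (SE 0.21) on the log2 scale, or 1.58-fold, and ranked 7575 among all probes. The probe was above background on 3 of 3 arrays labelled Fe-deficient and on 1 of 3 labelled Fe-sufficient. Between 36 and 54 random probes were at least as bright under the first label and between 69 and 238 under the second. After the same correction its difference was 0.76. These values lie among the random probes, so the fold of this probe describes signal at or near background.

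**Figure D1:**
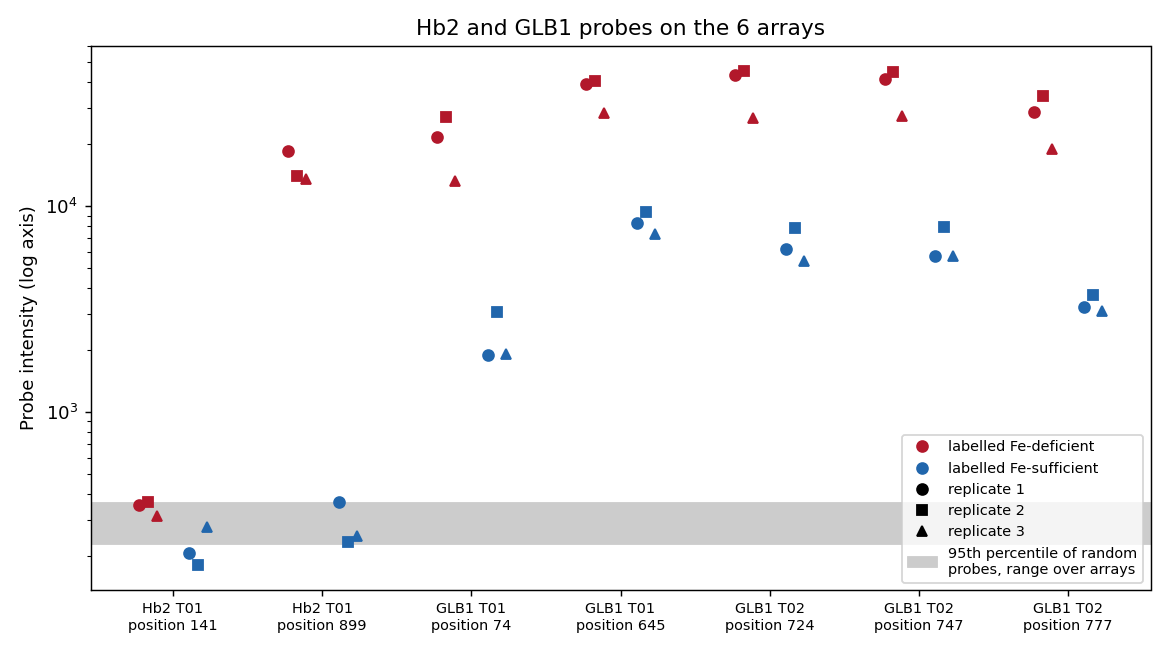
Intensity (log axis) of the 7 haemoglobin probes, 1 column per probe, with red for arrays labelled Fe-deficient, blue for arrays labelled Fe-sufficient and the symbol for the replicate; the grey band spans the 95th percentile of random probes over the 6 arrays, 229 to 359. The Hb2 probe at position 899 goes from 234 to 365 in the Fe-sufficient group to at least 13505 in the other, the Hb2 probe at position 141 stays near the band in both groups, and all 5 GLB1 probes lie above the band on every array.

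The 2 probes of Hb2 thus differed by 5.12 log2 units in their group difference, with the probe at position 141 near background in both groups. Among 59750 transcripts with more than 1 probe this was the largest spread between probes, the next largest was 3.95 and the median 0.31. Of 40256 transcripts with 2 probes, 115 had a downstream probe higher by at least 2 log2 units under the Fe-deficient label, and in 50 of these the upstream probe was higher by under 1 log2 unit or was lower. In the mirror case, the upstream probe was higher by at least 2 log2 units in 65 transcripts, of which 24 had a downstream probe below 1. A split of the kind seen in Hb2 was therefore found in other transcripts too, at smaller size. No other transcript of Hb2 is on the array that could be set beside these probes.

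**Figure D2:**
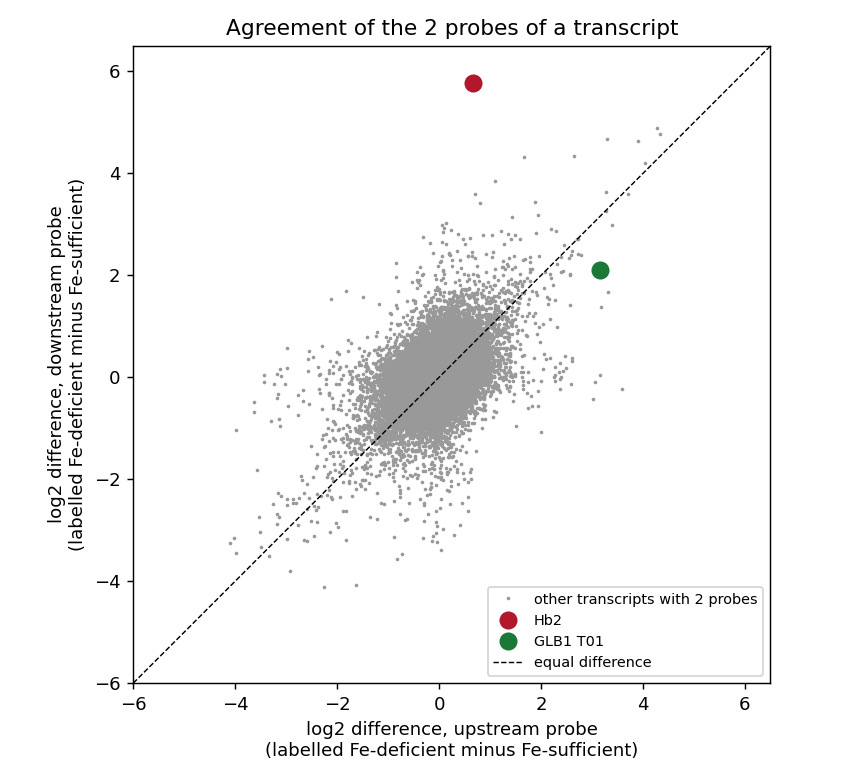
Group difference (log2, labelled Fe-deficient minus labelled Fe-sufficient) of the upstream probe against that of the downstream probe for the 40256 transcripts with 2 probes, with the dashed line where both are equal. Hb2 stands alone at 0.66 and 5.78, whereas GLB1 T01 lies nearer to the line at 3.15 and 2.10.

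On the level of the transcript, Hb2 had log2 values of 11.32, 11.15 and 11.00 on Fe-deficient arrays 1, 2 and 3. It had 8.10, 7.68 and 8.03 on Fe-sufficient arrays 1, 2 and 3. The groups were separated by 2.90, whereas the arrays of a group spanned 0.32 and 0.42. The means were 11.15 ± 0.16 and 7.94 ± 0.22 (SD, n = 3 in each group), with a difference of 3.22 (SE 0.17), or 9.30-fold. This value is the average of a probe that differed 54.8-fold and a probe that differed 1.58-fold, and neither probe showed it.

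GLB1 was measured by 5 probes, which all had a clear signal in both groups. Over these probes the intensity ran from 13225 to 45512 under the Fe-deficient label and from 1896 to 9376 under the Fe-sufficient label. On 5 of the arrays no random probe was as bright as any GLB1 probe, and on Fe-sufficient 3 between 4 and 6 of the 1663 random probes were. In each probe the lowest Fe-deficient value exceeded the highest Fe-sufficient value, by 3.04 to 5.11 times.

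The probe at position 74 of transcript T01 read 21591, 27160 and 13225 on Fe-deficient arrays 1, 2 and 3, and 1896, 3067 and 1918 on the Fe-sufficient arrays. Its log2 difference of 3.15 (SE 0.33), or 8.86-fold, was the widest among the GLB1 probes. The other probe of T01, at position 645, read 39244, 40661 and 28495 against 8323, 9376 and 7356. Its difference of 2.10 (SE 0.21), or 4.29-fold, was the narrowest. These probes of T01 differed from each other by 1.04 log2 units, a spread exceeded by 4.97% of all transcripts with more than 1 probe.

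The 3 probes of transcript T02 have positions 724, 747 and 777, within 53 of each other. Read as start positions, these place them on nearly the same stretch of RNA, so they are not treated as separate measurements of the gene. The probe at position 724 had 43264, 45512 and 26654 on Fe-deficient arrays 1, 2 and 3 and 6169, 7808 and 5393 on the Fe-sufficient arrays. The probe at position 747 had 41376, 44714 and 27256 against 5745, 7936 and 5746. The probe at position 777 had 28693, 34461 and 18895 against 3228, 3697 and 3086. Fold differences were 5.87, 5.77 and 7.98, respectively, and the log2 differences lay within 0.47 of each other. In the Fe-deficient group every GLB1 probe, those of T01 included, was highest on array 2 and lowest on array 3, and in the Fe-sufficient group every probe was highest on array 2.

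Summarised by transcript, T02, which stands for the gene in the counts by brightest transcript, had log2 values of 15.40, 15.47 and 14.71 on Fe-deficient arrays 1, 2 and 3 and 12.46, 12.93 and 12.40 on the Fe-sufficient arrays. The means were 15.19 ± 0.42 and 12.59 ± 0.29 (SD, n = 3), which gave a difference of 2.60 (SE 0.25), or 6.06-fold. T01 had log2 values of 14.83, 15.02 and 14.24 under the Fe-deficient label and 11.96, 12.39 and 11.87 under the Fe-sufficient label. Its means of 14.70 ± 0.40 and 12.07 ± 0.28 differed by 2.62 (SE 0.25), or 6.17-fold. The groups did not overlap in either transcript, with gaps of 1.86 for T01 and 1.78 for T02. The highest intensity on the arrays was 59380 on 5 of them and 51143 on Fe-sufficient 3, and the GLB1 probe at position 724 reached 45512. The mean Fe-deficient level of T02, at 15.19, was thus close to the top of the intensity scale. Among the 5 GLB1 probes, those with a higher mean Fe-sufficient level had the smaller log2 differences. These ran from 3.15 at a level of 11.13 to 2.10 at a level of 13.02. Whether the top of the scale narrowed the GLB1 folds was not tested.

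In the order of all 59756 transcripts by their difference, Hb2 ranked 16, GLB1 T01 ranked 25 and GLB1 T02 ranked 26 from the top. Of all transcripts 0.0853% were called, 0.0703% upwards (42 transcripts) and 0.0151% downwards (9 transcripts). The balance of directions turned without Fe-sufficient 1, with 162 called upwards and 934 downwards. Non-overlapping groups with the higher values under the Fe-deficient label, as in all 3 haemoglobin transcripts, were found in 9.75% of all transcripts, and the opposite order in 7.65%. The members were chosen on this contrast, so nothing is read from their place in it. The median log2 difference of all transcripts was 0.01.

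Within the groups the genes did not follow the same order of arrays. Hb2 deviated from its group mean by 0.16, -0.01 and -0.15 on Fe-deficient arrays 1, 2 and 3, and by 0.16, -0.25 and 0.09 on Fe-sufficient arrays 1, 2 and 3. GLB1 T02 deviated by 0.21, 0.28 and -0.49 and by -0.13, 0.33 and -0.20. On Fe-sufficient 2 Hb2 was thus at its lowest and GLB1 at its highest, and that array also had the highest limit set by random probes. The pooled SD within groups was 0.19 for Hb2 and 0.36 for GLB1. The Hb2 value is that of the average of its 2 unlike probes. Under the Fe-deficient and Fe-sufficient labels the SD was 0.24 and 0.35 for its probe at position 899. For its probe at position 141 it was 0.13 and 0.31.

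The spots around each haemoglobin probe were read as a check of the slide. The 211 to 218 transcript probes within 10 rows and columns of each haemoglobin probe had a median group difference between -0.03 and 0.10. On single arrays the median of these neighbours departed from their mean over the arrays by -0.11 to 0.17.

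Genes that lie near the haemoglobin genes in the RefSeq annotation were read as a further comparison. They were the 3 nearest genes on each side that could be matched to the array, from 1 to 9 places away. Of these 12 genes 0 were called in limma (lowest adjusted p = 0.470), with log2 differences from -0.63 to 0.72. An unadjusted limma p under 0.05 was found in 2, against 9.73% of all genes. Both lie after Hb2, namely GRMZM2G168909 and GRMZM2G141731. The nearest measured gene after Hb2, GRMZM2G168909, differed by 0.42, and aos1, nearest to GLB1 on one side, by -0.27. No annotated gene overlapped Hb2 or GLB1 in that table.

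Lists of genes with known links to haemoglobin function were then counted by the brightest transcript of each gene. Of 27 such genes 2 rose and 0 fell, against 0.079% of all genes on the array that were called by their brightest transcript, 0.0637% upwards and 0.0153% downwards, and the median log2 difference was 0.15. Both genes belong to nitrate and nitrite reduction. Without Fe-sufficient 1 the count was 4 of 27, namely the 3 genes of that list and sum1. This list was drawn up with the results of these arrays known, so its count is not independent evidence. No other globin gene could be matched by symbol.

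Nitrate reductase reduces nitrate, the product of the haemoglobin reaction, to nitrite, and can also release nitric oxide from nitrite. Its gene NAR (GRMZM5G878558) had log2 values of 14.51, 15.04 and 13.88 on Fe-deficient arrays 1, 2 and 3 and 10.90, 9.16 and 9.69 on the Fe-sufficient arrays. The groups did not overlap, and the difference of 4.56 (23.6-fold) passed the threshold (limma adjusted p = 0.0416). After the RMA type of background correction it did not (limma adjusted p = 0.0809), nor when any single array other than Fe-sufficient 1 was left out, with limma adjusted p of 0.275, 0.135 and 0.111 without Fe-deficient 1, 2 and 3 and 0.211 and 0.258 without Fe-sufficient 2 and 3.

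A second nitrate reductase gene, NNR1 (GRMZM2G568636), had log2 values of 13.11, 13.78 and 12.77 against 10.99, 10.77 and 10.20. The groups did not overlap, at 5.94-fold, but the gene missed the threshold (limma adjusted p = 0.0695). Nitrite reductase NIR (GRMZM2G079381), which reduces nitrite to ammonium, had values of 14.21, 14.59 and 14.03 against 11.15, 10.73 and 10.46 in its brightest transcript, T05. The groups were again apart, at 11.3-fold (limma adjusted p = 0.00878). This call was lost without Fe-deficient 1 (limma adjusted p = 0.0950), without Fe-sufficient 2 (0.0892) or without Fe-sufficient 3 (0.0683). Its transcripts T01 and T02 rose 19.2-fold and 15.8-fold (limma adjusted p = 0.00696 and 0.0183), whereas T03 and T04, at 7.73-fold and 14.3-fold, were not called (0.126 and 0.132). The calls of T01 and T02 were lost without the same arrays. Their limma adjusted p was 0.0712 and 0.165 without Fe-deficient 1, 0.0892 and 0.162 without Fe-sufficient 2, and 0.0690 and 0.118 without Fe-sufficient 3.

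The low oxygen list held 13 genes of fermentation, sucrose breakdown and glycolysis, pathways in which maize roots are known to induce genes when oxygen is short. Whether each of the 13 genes is induced in that way was not tested. Of the 13 genes 0 were called in limma in any of 30 transcripts. By brightest transcript 1 had an unadjusted limma p under 0.05, against 9.73% of all genes, and 11 had a positive difference. The median log2 difference was 0.09, against 0.01 for all genes, with a range from -0.78 for the sucrose synthase sus2 to 1.24. Alcohol dehydrogenase adh1, the classical anaerobic gene of maize, had mean log2 levels of 15.58 and 15.49 in its brightest transcript, a 1.06-fold difference (limma adjusted p = 0.833). These levels are close to the top of the intensity scale. So were the mean log2 levels of adh2 (15.07), sh1 (15.45), sus1 (15.53), eno2 (15.11) and ald1 (15.29) in their brightest transcripts. The effect of this on the median of the list was not tested. Dimmer transcripts above background differed 1.75-fold and 1.08-fold for sh1, 1.38-fold and 1.15-fold for sus1, and 1.29-fold and 0.963-fold for eno2. Those of pdc3, eno1, gpc4, gpc3 and sus2 differed 2.82-fold, 1.95-fold, 1.17-fold, 1.05-fold and 0.762-fold. The brightest transcripts of these genes differed 1.67-fold, 1.11-fold, 2.35-fold, 1.12-fold and 0.582-fold. The groups of the dimmer eno1 transcript did not overlap. The other adh1 transcripts were not called either, but T05, T06 and T08, which lay lower on the scale, had larger differences of 2.79-fold, 1.57-fold and 1.48-fold (limma adjusted p = 0.463, 0.527 and 0.546), and T01 differed 1.12-fold (0.775). The groups of T05 did not overlap. Its paralogue adh2 differed 1.36-fold (limma adjusted p = 0.492). The glycolytic glyceraldehyde phosphate dehydrogenase gpc4 had the lowest p-value of the list, at 2.35-fold (limma adjusted p = 0.301).

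Haemoglobin needs haem, and nitrite reductase needs siroheme, which branches from the same tetrapyrrole pathway. Of 6 genes for these cofactors 0 were called by limma in their brightest transcript. An unadjusted limma p under 0.05 was found in 2, against 9.73% of all genes. All 6 had a positive difference and the median was 0.47. The siroheme gene sum1 (GRMZM2G105604) rose in its dimmer transcript T01, at least 8.82-fold, being above background on 3 of 3 arrays labelled Fe-deficient and on 0 of 3 labelled Fe-sufficient (limma adjusted p = 0.00226). Its brightest transcript, T02, was 4.31-fold higher without passing the threshold (limma adjusted p = 0.251). The uroporphyrinogen decarboxylase gene les22, on the haem branch, differed 1.54-fold (limma adjusted p = 0.445). The pair of genes named ho1, haem oxygenases that break haem down, differed by 0.07 and 0.08, and elm1, which makes the phytochrome chromophore from the haem product, by 0.31.

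Of 5 genes for alternative oxidase and the ascorbate cycle 0 were called in limma and 0 had an unadjusted p under 0.05, with a median of -0.20 and a range from -0.30 to 0.25. These enzymes also deal with an over-reduced electron transport chain or its reactive oxygen. The dehydroascorbate reductase dhar1 differed by -0.20 (limma adjusted p = 0.602) and the alternative oxidase aox1 by -0.30 (limma adjusted p = 0.651). Another alternative oxidase gene, aox3, was not above background on any array in its brightest transcript. In the list of iron genes the lowest p-value belonged to the transcription factor gene IRO3, with a difference of 0.72 (limma adjusted p = 0.463). The next lowest belonged to an alternative NAD(P)H dehydrogenase gene (GRMZM2G041418), which was above background on 2 of 3 Fe-deficient and 0 of 3 Fe-sufficient arrays and for which no fold is given.

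**Figure D3:**
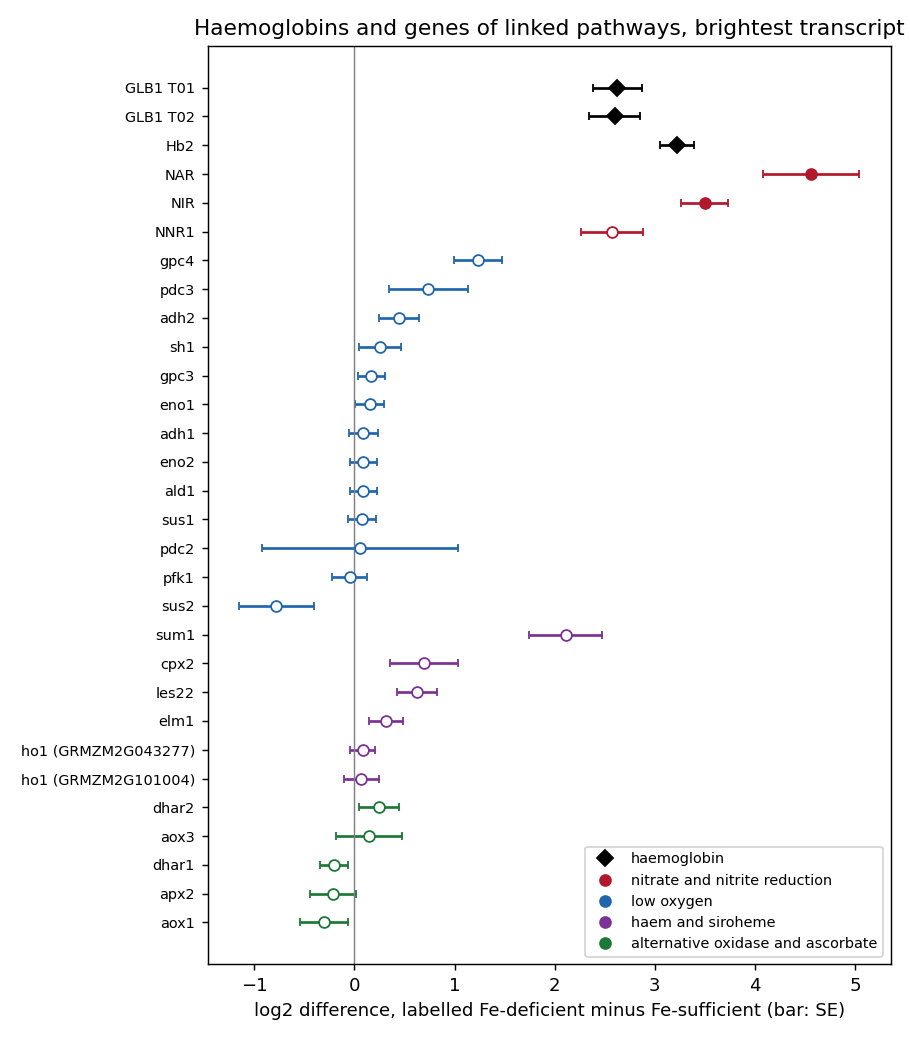
Group difference (log2, labelled Fe-deficient minus labelled Fe-sufficient) with its SE for the haemoglobin transcripts (diamonds) and for the brightest transcript of the 27 linked genes (circles, filled where called in limma), coloured by list. The 3 nitrate and nitrite reduction genes lie between 2.57 and 4.56, beside the haemoglobins, and the 13 low oxygen genes lie between -0.78 and 1.24.

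The genes whose profile over the 6 arrays was nearest to that of a haemoglobin gene were found by the root mean square of the log2 distance, after each transcript's mean was subtracted, among the 46465 transcripts above background on all arrays of at least 1 group. The distance to Hb2 was 0.29 for TAZ1 (GRMZM2G004161, T02), 0.30 for NIR (T05), 0.37 for HB34 (GRMZM2G002915), 0.43 for the glutamine synthetase gene gln1 (GRMZM2G098290, T03) and 0.45 for fnr1 (GRMZM2G058760), a ferredoxin-NADP reductase gene. Of genes with an informative symbol, these 5 were nearest. GLB1 followed at 0.45 for T01 and 0.46 for T02. For comparison, the pooled SD of Hb2 within groups was 0.19. The Hb2 profile used for these distances is the median polish value, with a group difference of 3.22. Its 2 probes differed by 0.66 and 5.78, so the list of nearest genes rests on an average that neither probe showed. Likeness to a single probe was not tested.

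The distance to GLB1 T02 was 0.17 for TAZ1 (T04), which was the nearest gene of all, 0.22 for GLK52 (GRMZM2G124495), 0.28 for fnr1, 0.29 for NNR1 and 0.35 for NIR (T03). Hb2 stood at 0.46, in rank 20 among genes. TAZ1, NIR and fnr1 were thus on both lists, with TAZ1 and NIR in different transcripts. TAZ1 T04 had log2 values of 11.87, 11.66 and 11.14 on Fe-deficient arrays 1, 2 and 3 and 9.16, 9.34 and 9.08 on the Fe-sufficient arrays. Its lowest Fe-deficient value thus fell on array 3 and its highest Fe-sufficient value on array 2, as for GLB1. Its highest Fe-deficient value fell on array 1, whereas that of GLB1 fell on array 2. All these points share the separation of the 6 arrays into 2 groups, and no p-value was given to the distance.

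**Figure D4:**
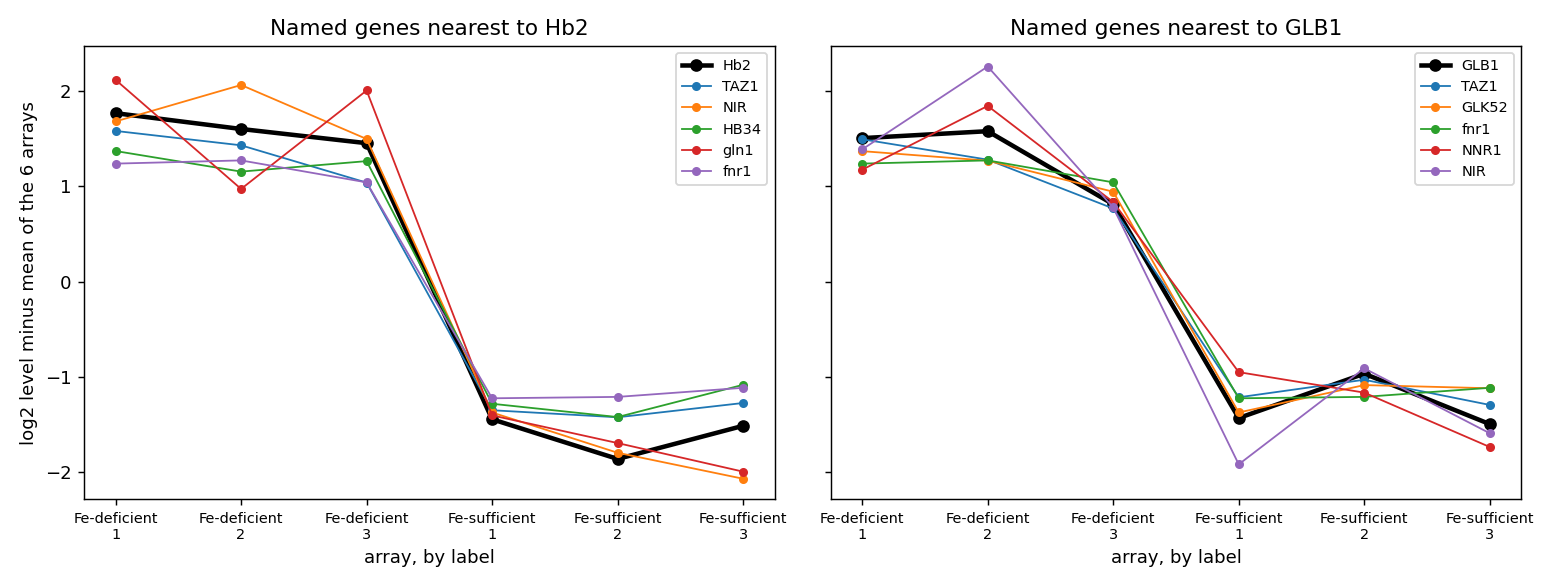
Log2 level minus the mean of the 6 arrays for Hb2 (left) and GLB1 T02 (right), in black, and for the 5 genes with an informative symbol nearest to each; lines only join the points of a gene, and arrays within a group have no order. All profiles are high on the 3 arrays labelled Fe-deficient and low on the 3 labelled Fe-sufficient. They differ in the size of the group difference and in the order of arrays within a group. The Hb2 profile is the average of its 2 unlike probes.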

How the data were processed

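Roots of 6 pooled samples were measured, 3 per label. The authors scanned the arrays, and deposited a probe intensity per array that was already quantile normalised, so background and quantile steps were left out. The study's methods name NimbleScan and RMA. Any subtraction of background before that step is not given in the sources used. Mismatch values were not used. The study's methods take the probes from the B73 gene set 5b. Intensities were put on a log2 scale, summarised per transcript by median polish, and compared with lmFit and eBayes (limma 3.58.1, R 4.3.3), with Benjamini-Hochberg adjustment over 59756 transcripts, with a call at an adjusted p up to 0.05 and a fold from 1.5 upwards. The fit was tested on simulated data. P-values rest on 3 arrays per group, which limits the precision.

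A transcript was above background if at least 1 probe was. If no array of a group met this, the fold is a lower limit, with each array of the dimmer group entered at its faintest signal above background, or at the value of the transcript where that was higher. The members and lists were chosen with earlier results of these data known. Named genes were the members, called genes of the lists, the 2 with the lowest p per list, and the 5 nearest profiles with an informative symbol. After their values were seen, adh1, sus2, sh1, sus1, eno2, ald1, NNR1, ho1, elm1 and aox3 were added. The genes ssu1, rbcs, cab48, pep1, ppdk1, me3, aos1 and GRMZM2G168909 were added in the same way. Gene symbols and gene order were taken from a RefSeq table of Zm-B73-REFERENCE-NAM-5.0. Tables and figures were made with matplotlib 3.10.9, numpy 2.4.6 and pandas 2.3.3 in Python 3.11.15. Alternatives were an RMA type of background correction (normexp), median scaling, cyclic loess, array weights, probe means, leaving out dim transcripts, no minimum fold, single probes, a replicate block, and leaving out each array.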

Additional observations from a re-analysis of the deposited data

How the results depend on the processing

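The differences of Hb2 and GLB1 between groups moved by less than the spread within groups under the background correction of the RMA type, array weights, cyclic loess, the mean of probes and median scaling. They ran from 3.09 to 3.30 for Hb2 and from 2.46 to 2.84 for GLB1 with single arrays left out. Hb2 moved with the probe: 0.66 at position 141 and 5.78 at position 899, or 0.76 and 5.98 with the background correction of the RMA type, a combination chosen after seeing the data. For GLB1 T02 the probe at position 777 alone gave 3.00. Of all transcripts 51 were called, against 28 with the background correction and 165 with array weights. With single arrays left out, the count ran from 2, without Fe-deficient 1, to 1096 (162 higher and 934 lower), without Fe-sufficient 1, with 22 and 21 without Fe-deficient 2 and 3, and 3 and 6 without Fe-sufficient 2 and 3. Of the linked genes 2 were called, against 1 with the background correction, 4 with array weights and 0 to 4 with single arrays left out: 4 without Fe-sufficient 1, 1 without Fe-deficient 2 or without Fe-deficient 3, and 0 otherwise. In a fit with a replicate block 0 transcripts and 0 linked genes were called in limma (5251 and 8 at an unadjusted p under 0.05, against 6165 transcripts without the block), and the differences of Hb2 and GLB1 were still 3.22 and 2.60. The deviations of arrays with the same number correlated at -0.12, -0.01 and 0.07, so the numbers were not taken as pairs. Under that block sum1 T01 also lost its call (limma adjusted p = 0.0668), and sum1 T02 was called with array weights (0.0468) and without Fe-sufficient 1 (0.0293). Signal over background limits Hb2: both of its probes lay among the random probes on arrays labelled Fe-sufficient, so its fold rests on values near background.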
